A study of Homo sapiens with 6 samples.

Results

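The BH3-only genes of the *BCL2* family were examined in A2780 cells, a human ovarian cancer line, after exposure to TH588. The members were taken by name, as the BH3-only genes of the family: *BBC3* (Puma), *PMAIP1* (Noxa), *BCL2L11* (Bim), *BID*, *BAD*, *BIK*, *BMF* and *HRK*, which are 8 of the 58336 genes in the count table, and each was found once by its Ensembl identifier. Messenger RNA from cells given TH588, a first-generation inhibitor of the nucleotide-sanitizing enzyme MTH1 that also disturbs mitosis, at 6 µM for 48 h was compared with RNA from cells given the DMSO vehicle. Each group held 3 libraries, lettered A, B and C, which the submitters describe as independent experiments in this single cell line. All 6 libraries therefore share its genetic background, and no other line, dose or inhibitor enters the comparison. The labels give 48 h for TH588 only and state no time for the DMSO libraries.

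BH3-only proteins are the stress sensors of the mitochondrial pathway of apoptosis. They carry a short BH3 helix that fits into a groove on the guardians, such as BCL2, BCL-XL and MCL1, and some of them also contact the pore formers BAX and BAK1 directly. Bim, Puma and the cleaved form of Bid are usually described as activators of the pore formers, whereas Bad, Bik, Bmf, Hrk and Noxa are described as sensitizers that occupy guardians. Bid, Bad, Bim and Bmf are also controlled as proteins, by cleavage, phosphorylation or sequestration, so RNA levels are only part of their regulation. The FOXO factors are known regulators of *BCL2L11*.

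TH588 replicate A was the shallowest library, with 28537837 counts in all against 77634048 to 99074175 in the other 5. In it 21.94% of counts fell on *SNORD3A*, a small nucleolar RNA gene, compared with 7.681% to 12.95% elsewhere. Of 6 ovarian epithelial markers, *KRT18* and *EPCAM* reached 1 CPM (the usual per-library scaling of counts, here on TMM-adjusted library sizes) in at least 1 library, whereas *PAX8* stayed at 0.024 CPM or below, *WT1* at 0.0848 CPM or below, *KRT8* at 0.262 CPM or below and *MUC16* at 0.18 CPM or below. The summed level of this list was 3.81 to 4.59 CPM with DMSO and 10.9 to 12.2 CPM with TH588. All 4 fibroblast markers reached 1 CPM, with sums of 14.2 to 15.9 CPM with DMSO and 16.4 to 17.8 CPM with TH588, while the 3 immune and 3 endothelial markers stayed below 1 CPM in every library. The part of these marker levels in the results that follow was not tested.

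The sequences before the start of *BBC3*, *BMF* and *BCL2L11* are shown because these members had the largest differences described here. Each was read from the 250 bases before the RefSeq transcript start on GRCh38.p14, 5′ to 3′ on the gene's strand, and bases inside the gene as the count table bounds it were left out for *BBC3* (99 bases) and *BMF* (13 bases). Capitals mark the motifs CACGTG (E-box), TGANTCA (AP-1), GTAAACA (FOXO core) and CCAAT or its complement ATTGG, each searched on both strands. *BBC3* is chr19:47232767-47232917 (minus strand), *BMF* is chr15:40108893-40109129 (minus strand) and *BCL2L11* is chr2:111120664-111120913 (plus strand), which lies inside the gene as the table bounds it but in none of its exon blocks.
BBC3: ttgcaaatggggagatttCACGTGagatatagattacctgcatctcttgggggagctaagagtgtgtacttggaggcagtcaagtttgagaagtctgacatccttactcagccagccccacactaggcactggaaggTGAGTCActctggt
BMF: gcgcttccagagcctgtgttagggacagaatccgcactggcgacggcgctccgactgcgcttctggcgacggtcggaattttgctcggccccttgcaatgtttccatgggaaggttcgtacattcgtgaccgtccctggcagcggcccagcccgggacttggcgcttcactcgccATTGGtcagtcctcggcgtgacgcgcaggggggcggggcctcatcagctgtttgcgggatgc
BCL2L11: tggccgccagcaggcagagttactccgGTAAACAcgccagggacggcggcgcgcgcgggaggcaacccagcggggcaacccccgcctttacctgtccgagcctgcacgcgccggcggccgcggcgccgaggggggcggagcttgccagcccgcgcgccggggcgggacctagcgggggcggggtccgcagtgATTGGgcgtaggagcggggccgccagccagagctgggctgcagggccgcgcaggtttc

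Motifs were counted in the full windows of 250 bases, and no marked motif overlapped another in these 3. Each held 1 CCAAT box, which for *BBC3* lies in the bases left out, and 32% of all 35116 RefSeq windows of this length hold that motif. The *BBC3* window also held 1 CACGTG (6.34% of all windows) and 1 TGANTCA (6.57%). Of the 13 windows of members, 3 held CACGTG, the others being windows of *BID*, and 1 held TGANTCA. The *BCL2L11* window held the GTAAACA motif, which was present in 2.98% of all windows and in no other window of the 7 members that matched the RefSeq table. The GC box GGGCGG, left in lower case, was not found in the *BBC3* window and occurred 1 time in that of *BMF*, 3 times in that of *BCL2L11*, 4 times in that of *PMAIP1* and 2 times in that of *HRK*, and 42.6% of all windows held it. The *BBC3* window was 49.2% G and C, against 76.8% for *BCL2L11*, 72.8% for *PMAIP1* and a median of 58% over all windows. *BID*, *BAD* and *BMF* have more than 1 start in the table, and the other *BMF* window held none of these motifs. *BIK* had no entry.

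After TH588, *BBC3* was the single member that rose past the test, 6.74-fold, while *BCL2L11* and *BID* fell by 1.93-fold and 1.45-fold. *BAD* and *BIK* did not pass the threshold. *BMF* was seen only in TH588 libraries, and *PMAIP1* and *HRK* had no counts in any library. Thus 5 of the 8 members passed the filter on low counts and were tested, and 3 of these 5 passed an adjusted p of 0.05 in edgeR's quasi-likelihood test, with p-values adjusted over all genes tested. Of all 15844 genes tested, 49.6% passed, 24.2% as higher and 25.3% as lower, so a call in itself was common in this comparison. The median log2 fold change of the 5 tested members was -0.54, beside 0.02 for all genes tested. Genes called as higher made up 48.9% of all calls, or 60.4% with scaling by library size only, which moved the median of all genes to 0.126 from 0.019. The directions of the 5 tested members were the same under either scaling.

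**Figure D1:**
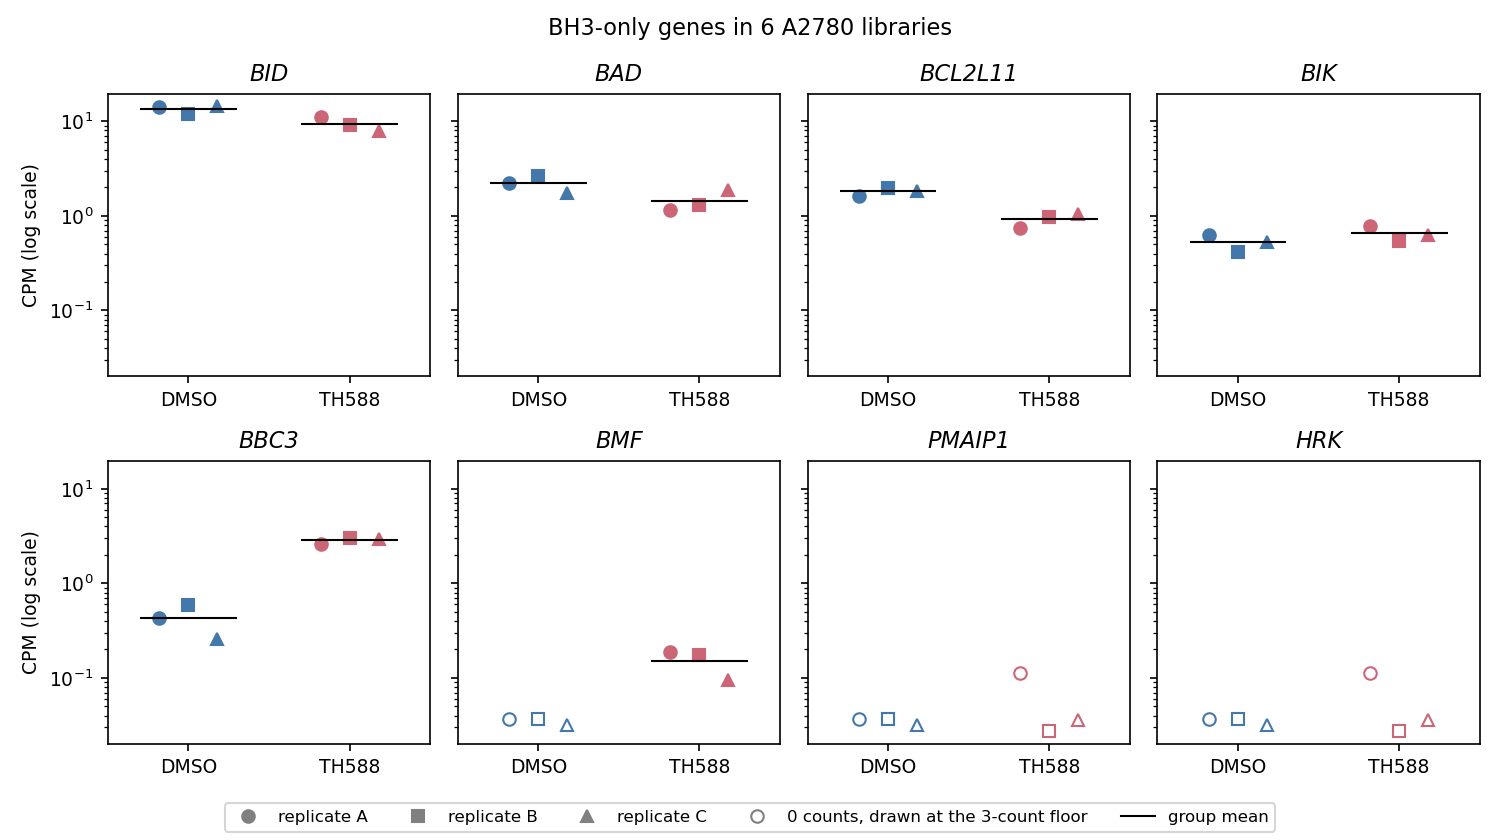
Level of each BH3-only gene in CPM (log scale) in the 3 DMSO and 3 TH588 libraries; symbols give the replicate, horizontal lines the group means, and open symbols libraries with 0 counts, drawn at the 3-count floor. *BBC3* lies between 0.256 and 0.594 CPM with DMSO and between 2.58 and 2.99 CPM with TH588, *BMF* has counts with TH588 only, and *PMAIP1* and *HRK* have none.

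*BBC3* encodes Puma, which binds every major guardian and can engage BAX. It lies on the minus strand of chromosome 19 of GRCh38, from 47220822 to 47232766, and its 5 exon blocks cover 3180 bases. The raw *BBC3* counts, in the order A, B, C, were 35, 49 and 24 with DMSO but 69, 325 and 247 with TH588. Scaled to the library, these were 0.426, 0.594 and 0.256 CPM with DMSO and 2.58, 2.99 and 2.96 CPM with TH588. The groups did not overlap, and even the shallowest library, TH588 replicate A, had more *BBC3* counts than any DMSO library. The means were 0.425 ± 0.169 and 2.84 ± 0.229 CPM (SD, n = 3 each), and the log2 fold change was 2.75 (standard error 0.28, 95% interval 2.15 to 3.36, adjusted p = 6.43e-06 from edgeR's test). A change at least as high was seen in 174 of the genes tested, or 1.1%. Between DMSO libraries *BBC3* varied more than the other detected activators, with 24 counts in replicate C and 49 in replicate B. Without DMSO replicate C the log2 fold change was 2.50, and without DMSO replicate B it was 3.07. The microRNA genes *MIR3190* and *MIR3191* lie within 2.52% of its exon bases and had 0 counts in every library.

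*BCL2L11* encodes Bim, which is held by dynein light chain and which binds all major guardians. It lies on the plus strand of chromosome 2 from 111119378 to 111168447, with 14 exon blocks covering 6658 bases. Its counts were 135, 164 and 173 with DMSO and 20, 106 and 88 with TH588, in replicates A, B and C. In CPM these were 1.64, 1.99 and 1.85 against 0.747, 0.974 and 1.05. Every TH588 library was below every DMSO library. The means were 1.83 ± 0.173 and 0.925 ± 0.159 CPM (SD, n = 3 each), with a log2 fold change of -0.95 (standard error 0.22, 95% interval -1.42 to -0.47, adjusted p = 0.00307 from edgeR's test). The value was -0.84 without TH588 replicate A, in which only 20 reads were counted. Exons of *MIR4435-2HG*, on the other strand, cover 10.9% of the exon bases. That gene had 17 to 35 counts with DMSO and 8 to 47 with TH588, and since the libraries were made with a kit that does not mark strand, reads in the shared 727 bases cannot be told apart.

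*BID* links death receptors to mitochondria, because caspase-8 cleaves its protein into the active form. It lies on the minus strand of chromosome 22 from 17734138 to 17774770, with 9 exon blocks and no exon overlap with other genes. It was the most abundant member in every library, with counts of 1177, 979 and 1353 with DMSO and 298, 1001 and 663 with TH588. In CPM these were 14.3, 11.9 and 14.4 against 11.1, 9.2 and 7.94. The groups were separate but near each other, with DMSO replicate B at 11.9 CPM and TH588 replicate A at 11.1 CPM. The means were 13.5 ± 1.46 and 9.43 ± 1.61 CPM (SD, n = 3 each). The log2 fold change was -0.54 (standard error 0.14, 95% interval -0.84 to -0.23, adjusted p = 0.00706 from edgeR's test). It was smallest without TH588 replicate C, at -0.40 with an adjusted p of 0.044 from edgeR's test. Among the 5 members tested, the groups thus did not overlap for 1 that was higher and 2 that were lower with TH588, against 28.7% and 29% of all genes tested.

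*BAD* is a sensitizer that growth factor signaling keeps phosphorylated and bound to adaptor proteins. It lies on the minus strand of chromosome 11 from 64269830 to 64284704, with 5 exon blocks covering 1708 bases. Counts were 185, 217 and 162 with DMSO and 31, 141 and 156 with TH588, or 2.25, 2.63 and 1.73 CPM against 1.16, 1.3 and 1.87 CPM. The groups overlapped, since TH588 replicate C lay above DMSO replicate C. The means were 2.2 ± 0.452 and 1.44 ± 0.377 CPM (SD, n = 3 each). The log2 fold change of -0.58 (standard error 0.23, 95% interval -1.09 to -0.08) had an adjusted p of 0.0552 from edgeR's test and did not pass. It passed without DMSO replicate C, at -0.72 (adjusted p = 0.0358), and without TH588 replicate C, at -0.81 (adjusted p = 0.028, both edgeR). Exons of *GPR137* on the other strand overlap 23.7% of its exon bases. *GPR137* had more counts than *BAD* in each library, 1094 to 1245 with DMSO and 283 to 1617 with TH588, so the level of *BAD* is uncertain.

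*BIK* is a sensitizer found at the endoplasmic reticulum. It lies on the plus strand of chromosome 22 from 43110748 to 43129712, with 953 exon bases, the fewest of the 8. Counts were 52, 34 and 50 with DMSO and 21, 59 and 53 with TH588, or 0.633, 0.412 and 0.534 CPM against 0.785, 0.542 and 0.635 CPM. The groups overlapped. *BIK* had a log2 fold change of 0.28 with a standard error of 0.32 (edgeR, adjusted p = 0.504). Its 95% interval, -0.42 to 0.98, leaves room for a change in either direction.

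*BMF*, a sensitizer that is released from the myosin motor complex, had 0 counts in all 3 DMSO libraries and 5, 19 and 8 counts in TH588 replicates A, B and C. It lies on the minus strand of chromosome 15 from 40087890 to 40108892, with 5447 exon bases. Exact Poisson 95% intervals, which cover counting error only, were 1.62 to 11.67, 11.44 to 29.67 and 3.45 to 15.76 counts in the TH588 libraries. The TH588 mean was 0.152 ± 0.0494 CPM (SD, n = 3). With 3 counts allowed in each DMSO library, a mean of 0.035 CPM, the TH588 mean was 4.36 times this limit. That ratio is not a strict lower bound. It leaves out the counting error of the TH588 counts, and the same Poisson interval for 0 counts reaches 3.69. More genes had a count in TH588 replicates B and C (22097 and 21672) than in the DMSO libraries (19506 to 19570). The shallow TH588 replicate A had 19138, and the part of this difference in the *BMF* counts was not tested. *BMF* did not reach the filter on low counts. Without that filter edgeR gave an adjusted p of 0.000619, and DESeq2 gave 0.000466. When every library was thinned to the depth of TH588 replicate A, the TH588 counts were 5, 4 and 4 and the DMSO counts were 0. The ratio to the 3-count limit was then 1.44. The antisense gene *BMF-AS1*, which covers 8.46% of the exon bases, had 0 counts in every library.

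*PMAIP1*, which encodes the MCL1-directed sensitizer Noxa, and *HRK*, a sensitizer best known from neurons, had 0 counts in each of the 6 libraries. *PMAIP1* lies on the plus strand of chromosome 18 from 59899948 to 59904306 and *HRK* on the minus strand of chromosome 12 from 116856144 to 116881441. Exons of no other gene in the table overlap theirs. A count of 0 allows up to 3 counts, which is 0.112 CPM in TH588 replicate A and 0.0276 to 0.0365 CPM in the other 5 libraries. Per length, these limits were 0.0123 to 0.0501 CPM per kb for *PMAIP1* and 0.00402 to 0.0164 for the longer *HRK*. Each limit is below the lowest level per length of *BBC3*, 0.0806 in DMSO replicate C. Of 19102 protein-coding genes matched by symbol, 2660 (13.9%) had 0 counts in all 6 libraries. No fold change can be given for either gene. These limits cover depth only: whether the counting step, for which the methods and the table name different gene models, left reads of these genes uncounted was not tested.

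Compared per length, the order of the members changed with treatment. With DMSO it ran from *BID* (3.05 ± 0.328 CPM per kb) through *BAD* (1.29 ± 0.265), *BIK* (0.552 ± 0.116) and *BCL2L11* (0.274 ± 0.026) to *BBC3* (0.134 ± 0.0531, SD, n = 3 each). The ranges of neighbours in this order did not overlap. With TH588, *BID* (2.12 ± 0.361) was still first, followed by *BBC3* (0.894 ± 0.072), *BAD* (0.844 ± 0.221) and *BIK* (0.686 ± 0.128), of which *BBC3* and *BAD*, and *BAD* and *BIK*, overlapped in range. *BCL2L11* (0.139 ± 0.0239) and *BMF* (0.028 ± 0.00907) came below them. On the scale of CPM, which does not account for length, the mean of *BCL2L11* was above that of *BIK* in both groups, although their ranges overlapped with TH588.

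**Figure D2:**
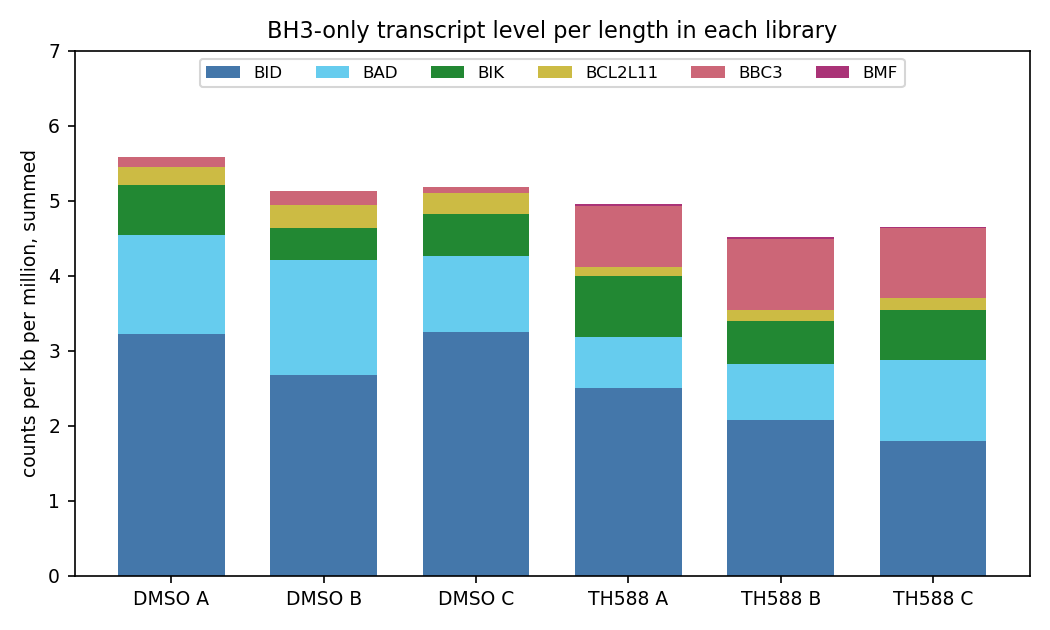
Summed level of the BH3-only genes per length in each library (bars, CPM per kb), split by gene; *PMAIP1* and *HRK* are 0. The totals lie between 5.13 and 5.58 with DMSO and between 4.52 and 4.96 with TH588, while the segment of *BBC3* grows from at most 3.64% to at least 16.3% of the bar.

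*BBC3* made up 2.4%, 3.64% and 1.56% of the summed BH3-only level in the 3 DMSO libraries (A, B, C) and 16.3%, 20.8% and 20% in the 3 TH588 libraries. *BID* made up 57.5% ± 5.33 with DMSO and 44.9% ± 6.09 with TH588, and *BCL2L11* 5.2% ± 0.715 and 2.97% ± 0.618 (SD, n = 3 each). The sum itself was 5.3 ± 0.251 CPM per kb with DMSO and 4.71 ± 0.229 with TH588 (SD, n = 3 each), a ratio of 0.889. Without *BID*, an alternative chosen after seeing the data, the sum was 2.25 ± 0.281 with DMSO and 2.59 ± 0.24 with TH588, a ratio of 1.15. With only the members under 10% of whose exon bases are overlapped, it was 0.999. The direction of the summed level therefore depends on which members enter it.

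Ratios of raw counts within a library do not depend on how libraries are scaled. The ratio of *BBC3* to *BCL2L11* was 0.259, 0.299 and 0.139 with DMSO (A, B, C) and 3.45, 3.07 and 2.81 with TH588, a 14-fold difference of geometric means. *BBC3* was thus the rarer of this pair in every DMSO library and the commoner in every TH588 library, on counts that are not adjusted for length. The ratio of *BBC3* to *BID* was 0.0325 ± 0.0163 with DMSO and 0.31 ± 0.0717 with TH588, that to *BAD* was 0.188 ± 0.0389 and 2.04 ± 0.396, and that to *BIK* was 0.865 ± 0.508 and 4.48 ± 1.12 (SD, n = 3 each). None of these 4 ratios overlapped between the groups, and each had an exact two-sided permutation p of 0.1, the smallest that 3 against 3 allows, so none of the 7 ratios computed could pass a threshold of 0.05. The 3 ratios among *BCL2L11*, *BID* and *BAD* all overlapped between groups. That of *BCL2L11* to *BID* was 0.137 ± 0.0275 with DMSO and 0.102 ± 0.033 with TH588 (SD, n = 3 each; exact permutation p = 0.3).

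**Figure D3:**
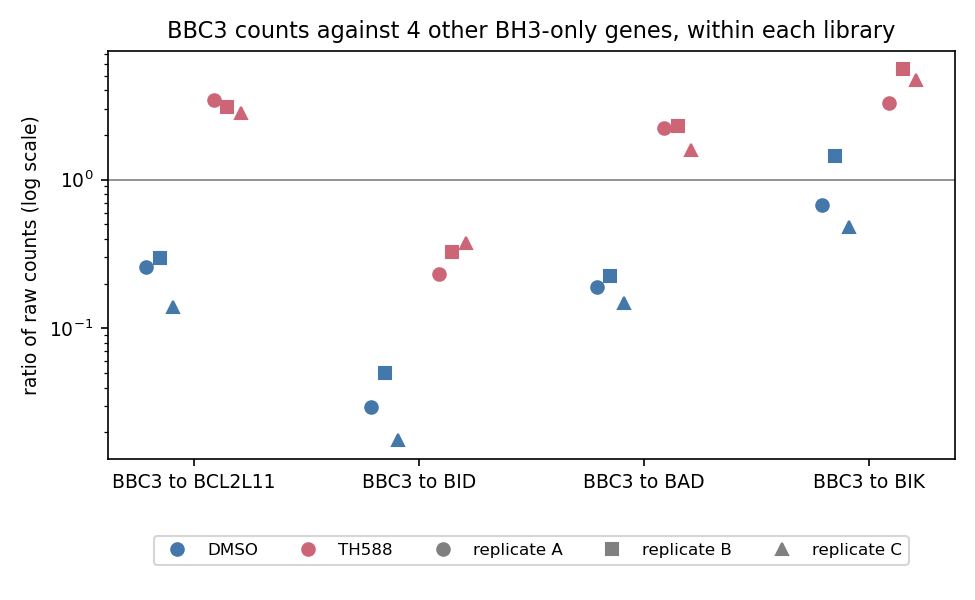
Ratio of the raw *BBC3* count to that of *BCL2L11*, *BID*, *BAD* or *BIK* within each library (log scale), DMSO in blue and TH588 in red, with symbols for the replicates; the grey line marks equal counts. In all 4 ratios each TH588 library lies above each DMSO library, for *BCL2L11* from at most 0.299 to at least 2.81.

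The guardians and pore formers, the partners of the BH3-only proteins, were set beside them. As a measure for the calls below, 49.6% of all genes tested passed, 24.2% as higher and 25.3% as lower. Of the 6 guardian genes, 4 could be tested, and *MCL1* was the one that passed, as higher (log2 fold change 0.47, 95% interval 0.31 to 0.63, adjusted p = 0.000224 from edgeR's test). *BCL2* (-0.79, interval -1.62 to 0.03), *BCL2L1* (0.35, interval -0.18 to 0.89) and *BCL2L2* (-0.04, interval -0.40 to 0.32) did not pass. *BCL2A1* and *BCL2L10* did not reach the filter. The values of *BCL2L1* and *BCL2L2* are uncertain, as 43% and 24.3% of their exon bases are shared with other genes. Among the pore formers, *BAX* rose by 2.05 on the log2 scale (interval 1.83 to 2.28, adjusted p = 4.06e-08 from edgeR's test), whereas *BAK1* (0.34, interval 0.03 to 0.66) and *BOK* (0.36, interval -0.10 to 0.82) did not pass. *BAK1* did pass as higher without DMSO replicate A (0.45) or TH588 replicate C (0.46), with library size only (0.45), after thinning to the shallowest library (0.42) and with at least 10 counts required in each library (0.37).

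Per length, the summed BH3-only RNA equalled 37.3% ± 1.39 of the summed guardian RNA with DMSO and 24.6% ± 1.24 with TH588, and 63.3% ± 6.35 and 18.1% ± 0.807 of the summed pore former RNA (SD, n = 3 each). These shares did not overlap between the groups: the guardian share was 38.5%, 35.8% and 37.5% against 25.4%, 23.2% and 25.2%. Without *BID*, however, the guardian share was 16.3%, 17.2% and 14% with DMSO and 12.6%, 12.5% and 15.5% with TH588, and the groups overlapped. The pore former share without *BID* was 26.7% ± 1.75 and 9.93% ± 0.66 (SD, n = 3 each) and did not overlap. The guardian sum was 14.2 ± 0.352 CPM per kb with DMSO and 19.2 ± 0.62 with TH588, and the pore former sum was 8.41 ± 0.705 and 26.1 ± 0.945 (SD, n = 3 each). Most of each sum came from 1 gene. *MCL1* was at 12.9 ± 0.213 with DMSO and 17.8 ± 0.653 with TH588, and *BAX* at 5.33 ± 0.661 and 22.1 ± 1.18 (SD, n = 3 each). *BBC3* taken alone equalled 1.04% ± 0.409 of the *MCL1* level per length with DMSO and 5.02% ± 0.518 with TH588 (SD, n = 3 each). These are levels of RNA in whole cultures, in which fewer cells that express a gene and less RNA per cell cannot be told apart.

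**Figure D4:**
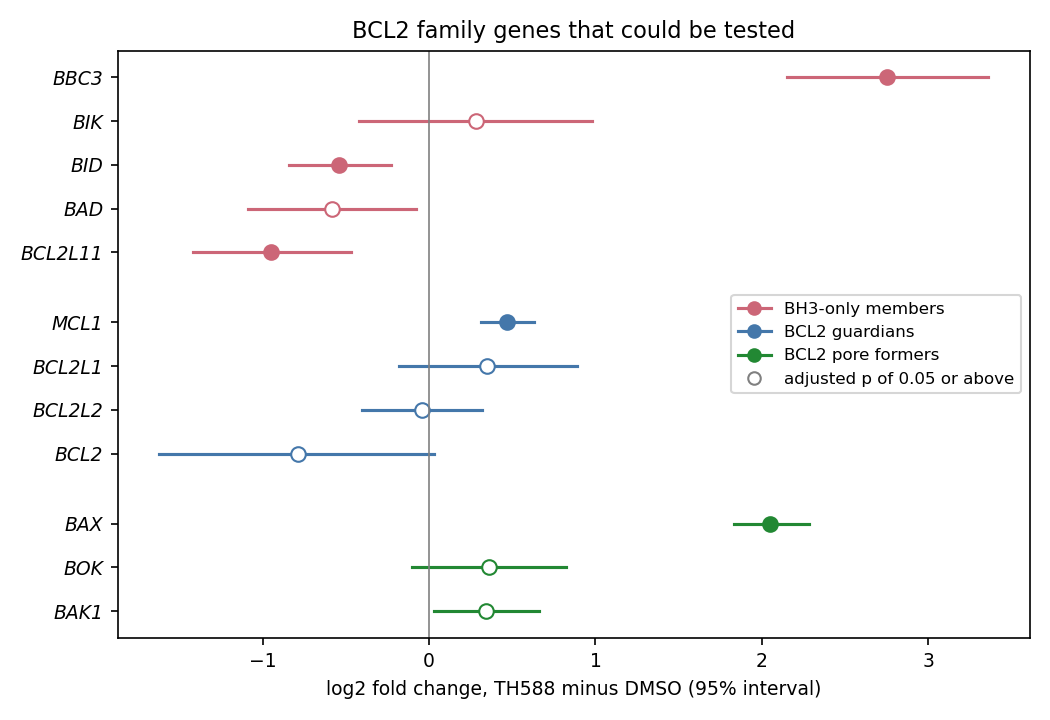
Log2 fold change (TH588 minus DMSO, points) with 95% intervals (lines) for the BH3-only genes, guardians and pore formers that could be tested; open points did not pass an adjusted p of 0.05. *BBC3* (2.75) and *BAX* (2.05) lie far above 0, *MCL1* (0.47) just above it, and *BCL2L11* (-0.95) and *BID* (-0.54) below it.

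Of 9 other genes with a BH3 motif or similarity to *BCL2*, 8 were tested, 2 of which were higher and 2 lower. This is near the share among all genes tested, of which 24.2% were called higher and 25.3% lower. The mitophagy receptors moved apart: *BNIP3L* rose (log2 fold change 1.22, standard error 0.11) and *BNIP3* fell (-1.01, standard error 0.08). *BCL2L13* rose (0.61, standard error 0.09). *HUWE1*, the ubiquitin ligase that binds MCL1 through a BH3 motif, fell (-0.37, standard error 0.08). The median of the list was -0.05, against 0.02 for all genes.

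Transcription factors that are known to act on BH3-only genes were also counted. Of 14 such genes, 13 were tested, 4 of which were higher, 3 lower and 6 did not pass. Calls were about as common among all genes tested, with 24.2% higher and 25.3% lower. The median log2 fold change of the list was 0.18. *FOXO4* rose from 0.266 ± 0.0732 to 2.36 ± 0.63 CPM (log2 fold change 3.17), *JUN* from 0.437 ± 0.0925 to 1.83 ± 0.432 CPM (2.06) and *DDIT3*, the stress factor CHOP, from 3.4 ± 0.528 to 6.51 ± 0.434 CPM (0.94; SD, n = 3 each). The adjusted p-values were 3.51e-06, 7.11e-05 and 0.000206 in edgeR's test. *FOXO1* (0.37) and *FOXO3* (0.12) did not pass. *E2F1*, which can raise several BH3-only genes, fell from 18.6 ± 0.326 to 6.7 ± 1.1 CPM (SD, n = 3 each; log2 fold change -1.47). *DDIT3* shares 39.6% of its exon bases with other genes, which makes its level uncertain.

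The calls of several factors depended on single libraries. *ATF3* (0.70, higher) did not pass without DMSO replicate A (0.66), TH588 replicate B (0.49) or TH588 replicate C (0.70). *TP73* (-0.53, lower) did not pass without DMSO replicate A (-0.43) or TH588 replicate C (-0.45). *ATF4* (-0.36, lower) did not pass without DMSO replicate A (-0.30) or C (-0.33). With library size only, *TP73* was -0.42 and *ATF4* -0.24, and neither passed. In the other direction, *FOXO1* passed as higher without TH588 replicate B (0.48), with library size only (0.46) and with no filter (0.37), and *MYC* (0.18, not passed) did so without TH588 replicate A (0.23).

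Genes whose products bind, phosphorylate, cleave or degrade BH3-only proteins formed the last list. All 21 were tested, 4 were higher, 10 were lower and 7 did not pass, and their median log2 fold change was -0.24. Of all genes tested, 24.2% were called higher and 25.3% lower. Of the 6 *YWHA* genes listed, whose products are adaptors that hold phosphorylated BAD, 5 passed as lower. These were *YWHAQ* (-0.74), *YWHAB* (-0.70), *YWHAH* (-0.68), *YWHAE* (-0.39) and *YWHAZ* (-0.38). *YWHAG* (-0.24, adjusted p = 0.0595 from edgeR's test) did not, except without TH588 replicate A (-0.31), with no filter (-0.23) and with limma-voom (-0.25). The related *SFN* was called higher (log2 fold change 3.14), with counts of 0, 1 and 5 with DMSO and 6, 25 and 16 with TH588 (A, B, C). It met the filter on low counts through its TH588 levels only. That entry favored a call as higher, so the call adds no support. It was near the detection limit, averaging 0.0218 ± 0.028 CPM in DMSO libraries and 0.215 ± 0.0206 CPM in TH588 libraries (SD, n = 3 each). Of the kinases that phosphorylate BAD, *AKT1* fell (-0.71) and *PIM2* rose (0.63), while *AKT2* (-0.00), *PIM1* (0.26) and *PIM3* (0.10) did not pass. *PIM1* passed as higher without TH588 replicate A (0.36), after thinning (0.32), with limma-voom (0.29) and with the stricter count filter (0.29). *MAPK9*, a JNK kinase that acts on Bim and Bmf, fell (-0.63).

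The dynein light chain *DYNLL1*, which tethers Bim, fell from 234 ± 7.64 to 158 ± 16.9 CPM (SD, n = 3 each; log2 fold change -0.57). *DYNLL2*, which tethers Bmf, had a log2 fold change of -0.58 and passed as lower, but not without DMSO replicate B (-0.56), TH588 replicate B (-0.45) or TH588 replicate C (-0.42). *CASP8*, the protease that cleaves Bid, rose from 33.4 ± 0.911 to 46.5 ± 4.86 CPM (log2 fold change 0.48), and *MTCH2*, the mitochondrial receptor of cleaved Bid, fell from 266 ± 15.7 to 195 ± 15.4 CPM (-0.45; SD, n = 3 each). *BTRC*, a subunit of the ligase that degrades Bim, was 0.22 and passed narrowly (adjusted p = 0.0488 from edgeR's test). It did not pass under 12 of the alternatives, among them each fit that left out 1 library except that without TH588 replicate B, where its log2 fold changes were 0.17 to 0.27.

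The nearest expressed genes on either side of each tested member were compared with it. Genes that overlap the member, such as *GPR137* for *BAD*, were left out. *SAE1*, 10.2 kb from *BBC3*, fell (log2 fold change -0.46, adjusted p = 0.00275 from edgeR's test), and *CCDC9*, 23.2 kb away on the other side, was -0.06 and did not pass. *BCL2L13*, itself a *BCL2*-like gene, lies 3.28 kb from *BID* and rose by 0.61 while *BID* fell. *MICAL3*, 12.9 kb from *BID*, fell (-0.33). *PLCB3*, 0.68 kb from *BAD*, fell by 0.51 on the log2 scale, while *ESRRA* (0.24) did not pass. On either side of *BIK*, *TTLL1* rose (0.94) and *MCAT* fell (-0.74). The closest expressed neighbours of *BCL2L11* were 441 and 443 kb away, *BUB1* (-1.16) and *ANAPC1* (-0.78), both mitotic genes and both lower.

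Over the 6 libraries, the genes at a mean log2 CPM of at least 2 whose log2 CPM followed a member most closely were *SCD5* and *DRG2* for *BBC3* (Pearson r = 0.9996 and 0.9982), *TOMM22* and *FANCM* for *BCL2L11* (0.9989 and 0.9988) and *CNN3* and *KLHL13* for *BID* (0.9992 and 0.9984). For *BAD* they were *SPATA5L1* and *TRNT1* (0.9932 and 0.9866), and for *BIK* they were *AUH* and *ZNF875* (0.9651 and 0.9613). These correlations describe 6 points in 2 groups that share libraries and depth. They were picked as the highest among all genes at that level, so high values of r were favored by the selection. The likeness is one of shape: *SCD5* changed by 0.21 on the log2 scale and *BBC3* by 2.75.

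**Figure D5:**
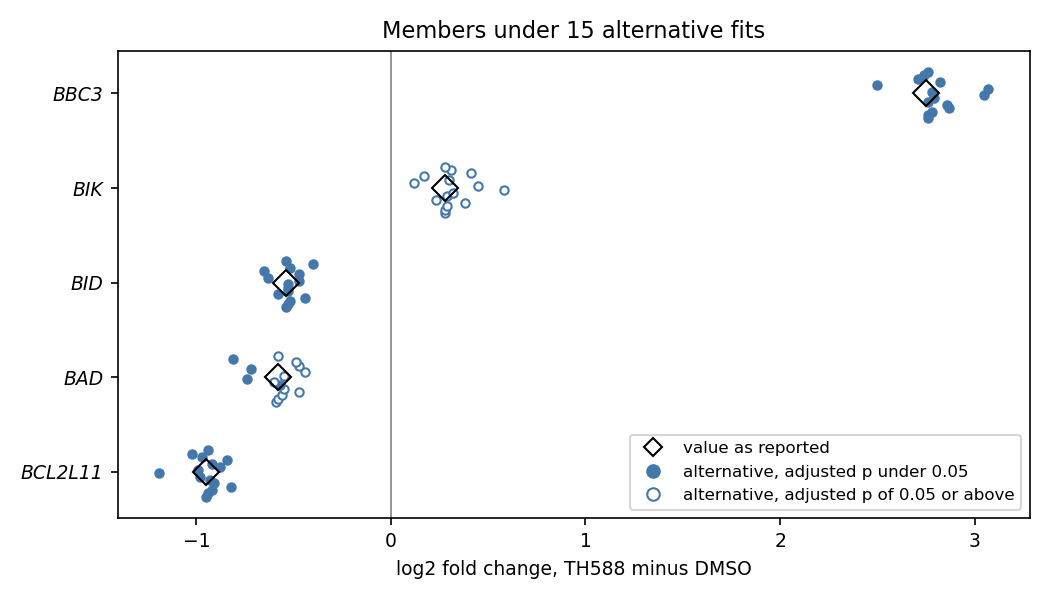
Log2 fold change (TH588 minus DMSO) of the 5 tested members as reported (diamonds) and under 15 alternative fits (circles, filled where the adjusted p was under 0.05). *BBC3* stays between 2.50 and 3.07, *BCL2L11* between -1.19 and -0.82 and *BID* between -0.65 and -0.40, all filled, while *BAD* is filled in 4 fits and *BIK* in none.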

How the data were processed

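A2780 cells treated with DMSO or TH588 were sequenced as 3 libraries per group. According to the study's methods, polyA RNA was prepared with a TruSeq kit and TopHat aligned the reads to GRCh38; per the labels, the counter was featureCounts 1.4.6. The authors deposited raw counts per gene, without normalization, with Ensembl identifiers and exon coordinates; how multimapping reads and reads in overlapping genes were handled is not given in the sources used here.

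Symbols were matched for 57754 of 58336 identifiers. Counts were compared with edgeR 4.0.16 (R 4.3.3; TMM, default filter on low counts, quasi-likelihood F test, treatment as the only term), and p-values were adjusted over 15844 genes by the Benjamini-Hochberg method, with a threshold of 0.05. CPM uses TMM library sizes, and levels between genes are per kb of exon. Standard errors are the log2 fold change over the square root of F, and intervals use the test's degrees of freedom. Alternatives included scaling by DESeq2's size factors or by library size only, leaving out the 10 most abundant genes, dropping the filter or asking for 10 counts in each library, DESeq2 1.42.0, limma-voom (3.58.1), thinning to the shallowest library, each library left out, the replicate letter as a block and a threshold of 0.01.

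The genes named were the 8 members and those of 5 other lists that passed or had the 4 lowest adjusted p of their list. For each tested member, they also included the nearest gene with at least 1 CPM on either side that does not overlap it. They further included the 2 genes most like the member by Pearson r. *FOXO1*, *FOXO3*, *MYC*, *YWHAG*, *AKT2*, *PIM1*, *PIM3*, *BCL2A1* and *BCL2L10* fall outside this rule and were named after their values were seen. Members and lists were chosen with earlier results of these data known. Replicates differed by more than sampling noise (chi-square per degree of freedom 25.2 to 180), so each library counted as 1 replicate. Depth was 28537837 to 99074175 counts per library, and floors of 3 counts cover counting error only. Sequences are from RefSeq. Some genes counted in the lists, and some motifs, are not reported by name here.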

Additional observations from a re-analysis of the deposited data

How the results depend on the processing

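The directions of the 5 tested members held under all 16 alternatives run for each, and the calls of *BBC3*, *BCL2L11* and *BID* held as well, with adjusted p-values up to 0.000115, 0.0137 and 0.044; *BIK* passed under none (0.244 to 0.795). *BAD* passed with no filter (-0.57) and after thinning (-0.74), and its value without single libraries lay between -0.81 and -0.44; the cause was not tested. After thinning, the TH588 mean of *BMF* was 1.44 times the 3-count floor in place of 4.36, since that floor weighs more at lower depth. The summed BH3-only ratio was 0.834 when CPM were summed without regard to length, 0.999 with members under 10% overlapped and, as an alternative chosen after seeing the data, 1.15 without *BID*. The number of genes called was 5831 to 8225, within 1.5 times the 7852 reported.

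Between libraries with the same letter, correlations of deviations from the group means were -0.07, -0.08 and 0.00. With 3 libraries per group, these values cannot settle whether the letters mark pairs. A fit with the replicate block called 7195 genes, of which 7129 were called without it too, and the calls of the tested members did not change. For *PMAIP1* and *HRK*, a level under 0.112 CPM in TH588 replicate A cannot be told from 0. In the deeper libraries, where both were also 0, this limit was 0.0276 to 0.0365 CPM. For *BMF* the limit concerns the DMSO libraries, at 0.032 to 0.0365 CPM, as it was counted in each TH588 library. No test for single outlying samples was run, each group having 3.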
